A study of Pimephales promelas with 270 samples.

Results

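The 100 transcripts described here had the lowest levels, relative to unexposed larvae of the same age, after 48 h in 3.3 mg/l propranolol, out of 34856 transcripts measured in whole larvae of the fathead minnow (Pimephales promelas). They were chosen by measured values. For each transcript the mean of log2(CPM + 1), where CPM is the count of a transcript scaled to a common library total, was taken in the high-dose and the control libraries of the 3 ages studied. The control mean was subtracted at each age, and the score of a transcript was the largest, that is the least negative, of the 3 differences. The 100 lowest scores were kept, so each transcript lay below its controls at each labelled age (4, 5 and 6 days after fertilization). The 58 high-dose and control libraries at 48 h fixed the choice, and values from them are given as a description, without a test. The main tests of differences between groups use only the libraries taken after 6 h and 24 h. The 48 h libraries also enter an alternative fit over all 27 groups and a search for single libraries far from their group.

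The study exposed larvae of 4, 5 or 6 days for 6, 24 or 48 h to propranolol at 0.66 mg/l (low dose) or 3.3 mg/l (high dose), or kept them unexposed as controls. The 27 groups form 9 exposure sets of 1 age and 1 duration, with 10 libraries per group. Exceptions are the low and the high dose at 6 days and 24 h, with 9 each, and the 6-day controls at 48 h, with 8. These are 266 of 270 labelled samples, and the other 4 are not analysed here. The labels used here give no strain, leave unstated if age refers to the start or the end of exposure, and do not tie samples to separate vessels. The p-values therefore measure a spread between libraries, which may be technical or between larvae of a shared vessel. They may not measure a spread between separate exposures. Every sample also carries a treatment text on ethinyl estradiol that contradicts its own dose label and the series title, and the propranolol labels were used.

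Propranolol blocks beta-adrenergic receptors, the cell-surface receptors through which adrenaline and noradrenaline raise heart rate, contraction and fuel release. In vertebrates including fish these receptors are found in heart, muscle, liver and other tissues, and fathead minnows hatch at about this age and live at first on yolk. The libraries were made from lysed larvae, so a lower transcript level cannot be told apart from fewer cells of the type that makes it. The transcripts carry bare identifiers, and 0 of 34856 matched a gene table of this species, so no gene name or role is given. Identifiers are printed for 4 of the 100, and the rest are called by their place in the order of scores, place 1 being the lowest. The places named below, other than those of the 4, were picked after their values were seen.

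Library totals ranged from 5.37 to 31.0 M counts (median 14.3 M). Among all libraries, 21 correlated with their own group less well than the others did (median r below 0.971), and 9 of them are high-dose or control libraries at 48 h, including 4 of the 10 high-dose libraries of the 6-day set. Without these 9 libraries the rule returned 51 of the 100, and 98 of the 100 still had a score below 0. Leaving out 9 other libraries was not tried, so the loss cannot be assigned to poor correlation.

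After 48 h the scores ran from -0.69 at place 1, a 1.61-fold lower level on the CPM + 1 scale, to -0.26 at place 100, a 1.20-fold lower level, with a median of -0.31. The boundary is not a gap, since the last transcript inside had a score of -0.2571 and the first outside -0.2558. The median difference of the 100 from control was -0.37 in the 4-day set, -0.40 in the 5-day set and -0.43 in the 6-day set. The 4-day set held the smallest difference, and so set the score, for 47 transcripts, the 5-day set for 29 and the 6-day set for 24. For comparison, 6705 transcripts, 19.2% of the table, lay below control in all 3 sets. Mean levels in the 48 h controls ranged from 0.862 to 1534 CPM with a median of 7.86, and 62 of the 100 lay below 10 CPM, 2 below 1 CPM and 5 at 100 CPM or above.

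For 99 of the 100, the libraries of high dose and control overlapped in all 3 sets. The rule ranked these same libraries, which favours transcripts whose libraries lie apart, so the counts below are a description. In the 6-day set 1 of the 100 had all its high-dose libraries below all its controls, where the background over the table was 0.0631%. In the 4-day and 5-day sets 0 of the 100 did, with backgrounds of 0% and 0.00574%. That transcript, at place 19, is abundant. In the 6-day set at 48 h its controls had 172 CPM at the lowest, 183 at the median and 257 at the highest, and the high-dose larvae had 94.6, 116 and 145 CPM. Low-dose larvae of that set lay between, at 146, 161 and 219 CPM.

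FMt000461, at place 3 with a score of -0.67, shows the pattern at moderate abundance. In the 4-day set at 48 h its controls had 15.1 CPM at the lowest, 24.5 at the median and 31.2 at the highest, and the high-dose larvae had 9.03, 14.6 and 20.4 CPM. The corresponding values were 10.5, 15.2 and 23.8 CPM against 4.82, 9.53 and 11.7 CPM in the 5-day set, and 7.77, 13.2 and 17.0 CPM against 4.63, 7.67 and 10.7 CPM in the 6-day set. In each set the medians were apart and the ranges overlapped. Means at 48 h were 24.5 ± 5.44 CPM in controls and 15.0 ± 3.51 CPM at the high dose in the 4-day set (SD, n = 10 each), 15.4 ± 3.52 and 9.05 ± 2.23 CPM in the 5-day set (n = 10 each), and 12.8 ± 2.93 (n = 8) and 7.26 ± 2.13 CPM (n = 10) in the 6-day set. Low-dose larvae had medians of 29.1, 14.5 and 10.8 CPM at 4, 5 and 6 days. They thus lay above the control median at 4 days and below it at 5 and 6 days.

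**Figure D1:**
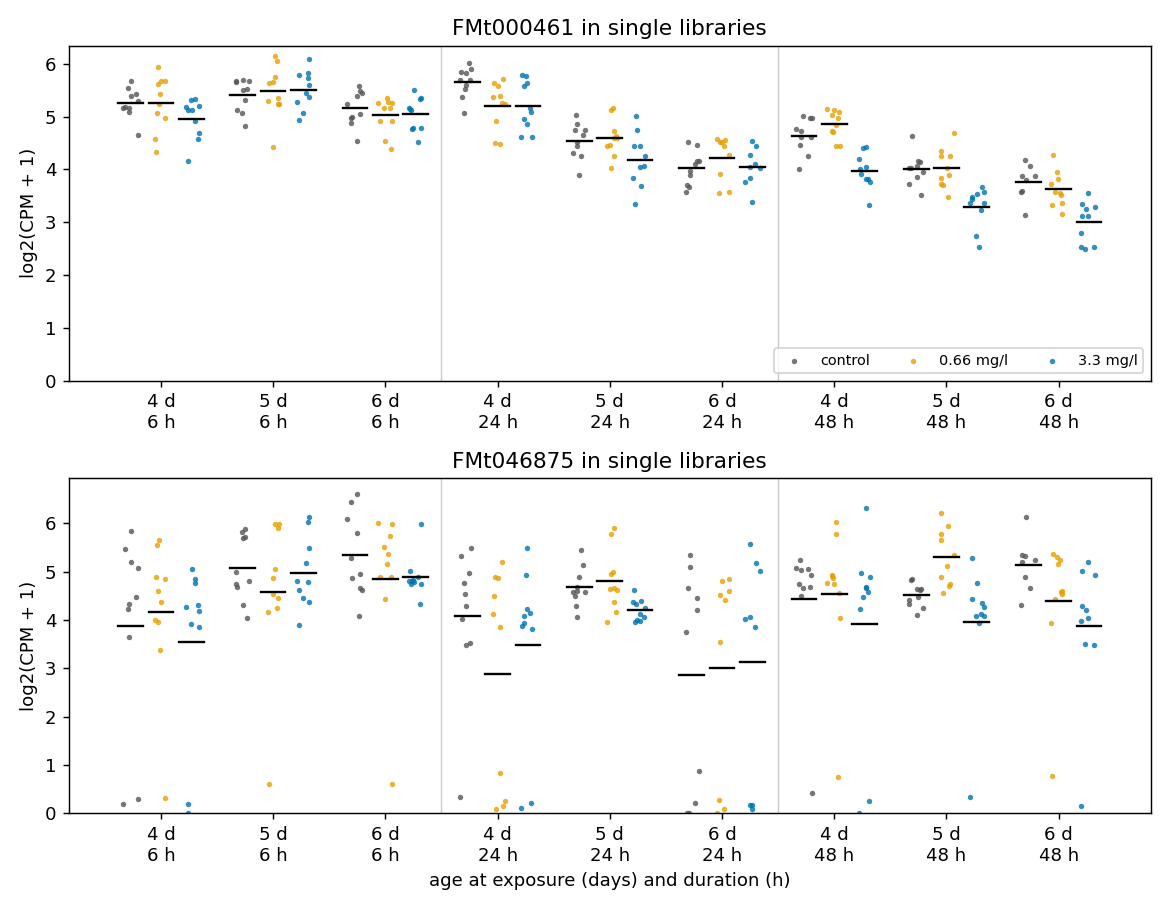
Levels of FMt000461 (top) and FMt046875 (bottom) in single libraries, as log2(CPM + 1), by age and duration, for controls, 0.66 mg/l and 3.3 mg/l; black bars are group means. The high-dose mean lies below the control mean in the 3 sets at 48 h on the right, and FMt046875 splits into libraries near 0 and libraries above 3 in most groups.

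FMt046875, at place 8 with a score of -0.53, had a score that rested largely on a few libraries near 0. In the 4-day set at 48 h its controls had 0.342, 27.7 and 37.0 CPM (lowest, median, highest) and the high-dose larvae 0, 23.7 and 78.3 CPM. The highest library of that set was thus a high-dose one. Without the 1 high-dose library of the 4-day set that holds 0 counts, the score went from -0.53 to -0.09. Another high-dose library of that set, at 0.194 CPM, and a high-dose library of the 5-day set, at 0.255 CPM, were also near 0. In the 6-day set the controls had 18.7, 36.4 and 68.97 CPM and the high-dose larvae 0.108, 16.5 and 35.9 CPM. Libraries near 0 occurred at every dose and duration.

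The score of each transcript was recomputed without each of the 58 libraries in turn. Leaving out 1 library kept between 82 and 97 of the 100 in the list. Without the library that mattered most to it, 97 of the 100 still had a score below 0, and 42 had a score above -0.2. The 3 that went above 0 were FMt044216 (from -0.47 to 0.14), FMt044223 (from -0.29 to 0.21) and place 94 (from -0.26 to 0.02), each on leaving out a control library of the 6-day set. FMt000461 kept a score of -0.60. The rule also depended on how means were taken. With group medians in place of means it returned 43 of the 100, of which 95 had a score below 0, and with a pseudocount of 5 in place of 1 it returned 59.

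**Figure D2:**
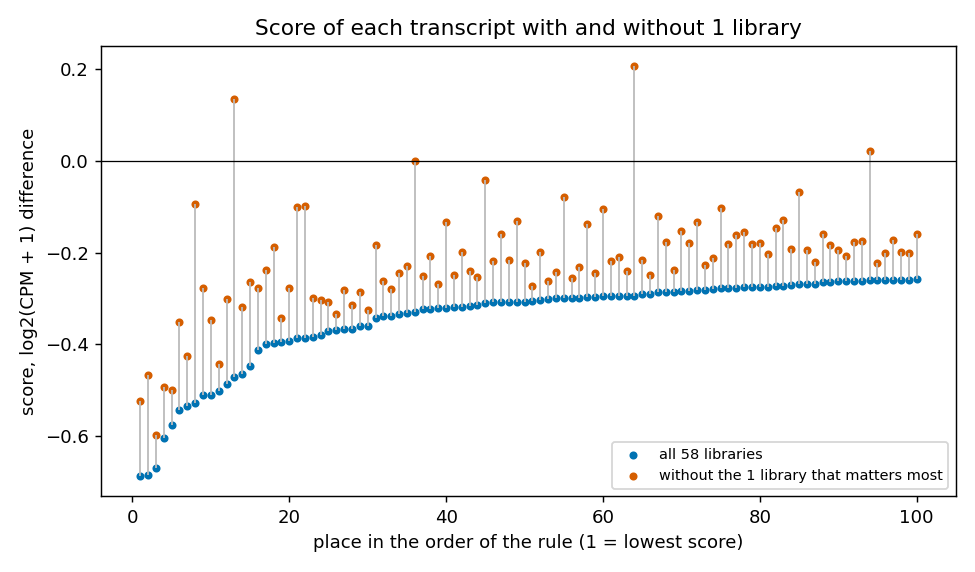
Score of each of the 100 transcripts (difference in log2(CPM + 1), y) against its place in the order of scores (x), with all 58 libraries (blue) and without the 1 library that matters most to it (orange). 97 of the orange points lie below 0, and 42 lie above -0.2.

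The low dose at 48 h shares its controls with the rule, so its differences are a description and not separate evidence. Of the 100 transcripts, 73 lay below control in the 4-day set, 51 in the 5-day set and 72 in the 6-day set, where 51.4%, 38.4% and 48.4% of all transcripts did. The medians of the difference were -0.11, -0.00 and -0.07, against -0.37, -0.40 and -0.43 at the high dose. 32 of the 100 lay below control in all 3 low-dose sets, against 8.95% of all transcripts.

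**Figure D3:**
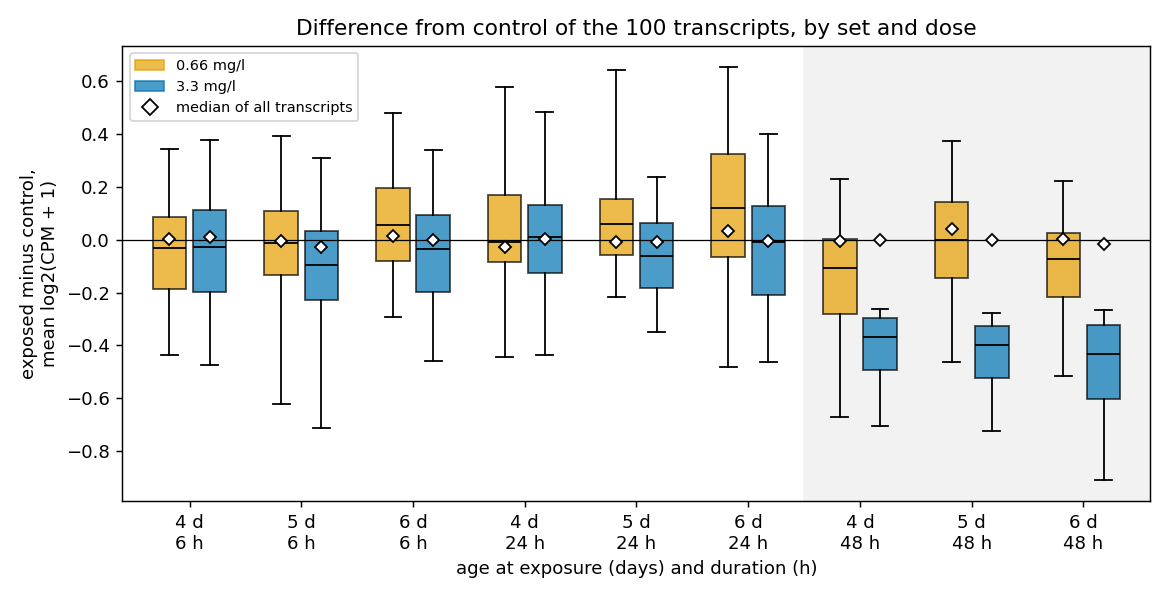
Exposed minus control difference in mean log2(CPM + 1) (y) of the 100 transcripts, by age and duration (x), for 0.66 mg/l (orange) and 3.3 mg/l (blue). Boxes span the quartiles with the median, whiskers run from the 5th to the 95th percentile, and diamonds are the median of all transcripts. The shaded sets at 48 h fixed the choice (high dose) or share its controls (low dose); outside them the high-dose medians lie between -0.09 and 0.01.

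At 24 h the high dose lay near the controls for most of the 100. These libraries are separate from those of the rule. As a difference in mean log2(CPM + 1), 46, 62 and 51 of the 100 lay below control in the 4-day, 5-day and 6-day sets, and 48.6%, 53.1% and 51.6% of all transcripts did. The medians were 0.01, -0.06 and -0.01. Below control in all 3 sets were 16 of the 100 and 15.3% of all transcripts.

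In the edgeR quasi-likelihood fit over the 18 groups at 6 h and 24 h, where all 100 passed the filter on low counts, 1 of the 100 fell at 24 h as a mean of the 3 ages and 0 rose (false discovery rate 0.05), against 0.102% and 1.06% of 33264 transcripts tested. The median log2 fold change of the 100 was -0.05 and that of all transcripts was 0.00. At an unadjusted p under 0.05, 10 of the 100 were lower and 2 higher, where 3.86% and 6.40% of all transcripts were.

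The transcript that fell at 24 h was place 57. Its control and high-dose medians were 27.2 and 23.1 CPM at 4 days, 15.1 and 11.9 CPM at 5 days and 16.1 and 12.3 CPM at 6 days. The libraries overlapped at each age, with highest high-dose values of 29.9, 16.0 and 21.6 CPM and lowest control values of 20.8, 13.2 and 11.0 CPM. Its log2 fold change was -0.29 ± 0.07 (SE, edgeR adjusted p = 0.012). At 6 h it had a closely similar value of -0.29 ± 0.07 that did not pass the test (edgeR adjusted p = 0.13), and the effects at 24 h and 6 h differed by 0.00 ± 0.10. The call at 24 h was lost without the 5-day or without the 6-day sets, which left 0 of the 100 called. Once the poorly correlated libraries of these 18 groups were left out, 3 of the 100 were called lower. How many of all transcripts were called in these alternatives is not given here.

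FMt000461 had a log2 fold change of -0.23 ± 0.10 at 24 h (SE, edgeR adjusted p = 0.39). Its control and high-dose medians were 50.7 and 34.0 CPM at 4 days, 23.1 and 16.9 CPM at 5 days and 15.4 and 15.6 CPM at 6 days. The high-dose median lay below control at the first 2 ages and not at 6 days. FMt046875 had -0.21 ± 0.35 (SE, edgeR adjusted p = 0.91), with a standard error above the value itself.

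Within single exposure sets, fitted on the 3 doses of that set, 95 to 99 of the 100 passed the filter. At 24 h edgeR called 0 of the 100 at the high dose in either direction in the 4-day set (background 0.0034% lower and 0.0102% higher), the 5-day set (0% and 0.0795%) and the 6-day set (0.104% and 0.586%). At an unadjusted p under 0.05 the counts were 6 lower and 0 higher, 7 and 0, and 8 and 3. DESeq2 called 1 lower in the 6-day set and 0 in the others. The shares of all transcripts at that p and with DESeq2 are not given here for single sets, so nothing is read from these counts.

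At 6 h no difference between the high dose and control passed the test among the 100. edgeR called 0 in either direction over the 3 ages, where 0% of all transcripts were called lower and 0.00601% higher, and limma-voom also called 0. At an unadjusted p under 0.05, 9 were lower and 0 higher, and 3.64% and 3.78% of all transcripts were. The median log2 fold change of the 100 was -0.07, and 72 of the 100 values lay below 0, against 52.3% of all. As differences in mean log2(CPM + 1), 54, 70 and 59 of the 100 lay below control at 4, 5 and 6 days. The shares of all transcripts were 46.8%, 58.7% and 50.2%. Below control in all 3 sets were 21 of the 100 and 13.5% of all transcripts. In the single 6 h sets, at both doses, edgeR called 0 of the 100 and 0% of all transcripts. DESeq2 called 1 of the 100 lower, at the high dose of the 4-day set, and its share of all transcripts is not given here. Place 1 had the lowest score of all at 48 h, and at 6 h its high-dose value was -0.36 ± 0.11 (SE, edgeR adjusted p = 0.36). FMt000461 was at -0.09 ± 0.10 (adjusted p = 0.90).

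The high-dose effect did not pass a test of the difference between 24 h and 6 h for any of the 100. edgeR and limma-voom each called 0, against 0.018% of all transcripts below 0 and 0.135% above 0 with edgeR. At an unadjusted p under 0.05 edgeR had 2 below and 3 above, and the shares of all transcripts at that p are not given here. The change from 24 h to 48 h was not tested, since the 48 h libraries chose the transcripts.

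At the low dose most of the 100 lay above control at 24 h in the 5-day and 6-day sets. As differences in mean log2(CPM + 1), 53, 40 and 32 lay below control at 4, 5 and 6 days, against 58.7%, 53.0% and 42.9% of all transcripts, with medians of -0.01, 0.06 and 0.12. Below control in all 3 sets were 5 of the 100 and 11.7% of all transcripts. In edgeR the median log2 fold change of the 100 was 0.10 as a mean of the 3 ages, that of all transcripts was 0.00, and 1 of the 100 rose and 0 fell (background 0.28% higher and 0.0451% lower). At an unadjusted p under 0.05, 18 were higher and 1 lower, where 6.70% and 4.67% of all transcripts were.

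The transcript that rose at the low dose was place 65. In the 6-day set at 24 h its controls had 11.4 CPM at the lowest, 13.2 at the median and 21.5 at the highest, low-dose larvae had 16.7, 24.5 and 28.9 CPM, and high-dose larvae had 12.1, 15.7 and 20.1 CPM. Its low-dose range began within that of the controls and reached above it. In the 4-day and 5-day sets the control and low-dose medians were 27.7 and 29.6 CPM, and 23.9 and 24.5 CPM. The log2 fold change over the 3 ages was 0.24 ± 0.06 (SE, edgeR adjusted p = 0.037), and within the 6-day set it was 0.63 ± 0.13 (adjusted p = 0.0048). With all 27 groups in the fit, or without the 6-day sets, 0 of the 100 were called higher at the low dose. Without the 4-day or the 5-day sets 6 and 4 were, and the shares of all transcripts called in these alternatives are not given here.

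Of the 12 comparisons of a dose with control in a single set at 6 h or 24 h, edgeR called 0 of the 100 in 11. The remaining one was the 6-day, 24 h set at the low dose. There 9 of the 100 rose and 1 fell, against 2.76% and 3.17% of 29703 transcripts tested, and 96 of the 100 were tested. The 9 were at places 4, 25, 56, 59, 61, 65, 73, 90 and 98, with log2 fold changes from 0.55 ± 0.15 (place 56) to 1.07 ± 0.21 (place 61, SE, edgeR adjusted p = 0.0042). The transcript that fell was at place 80, by -1.14 ± 0.30 (edgeR adjusted p = 0.021). In the 4-day set at 24 h edgeR called 0 of the 100 and 0% of all transcripts at the low dose, with 4 lower and 3 higher at an unadjusted p under 0.05, and DESeq2 called 1 higher. In the 5-day set edgeR and DESeq2 called 0 of the 100, against 0% of all transcripts lower and 0.0663% higher with edgeR, with 2 lower and 4 higher at an unadjusted p under 0.05. At 6 h edgeR and limma-voom called 0 of the 100 at the low dose over the 3 ages, and edgeR called 0% of all transcripts. At an unadjusted p under 0.05 edgeR had 2 lower and 2 higher. For these comparisons the shares of all transcripts at that p and with DESeq2 are not given here, so nothing is read from those counts.

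Compared directly at 24 h, 4 of the 100 were lower at the high dose than at the low dose and 0 were higher, against 0.313% and 0.487% of all transcripts (edgeR, mean of 3 ages). The median of the 100 was -0.13, and 77 of the 100 lay below 0, where 49.6% of all transcripts did. At an unadjusted p under 0.05, 24 were lower and 1 higher, against 6.60% and 6.45% of all. These values share the low-dose libraries with those of the low dose against control. The 4 were place 4 (-0.69 ± 0.15, SE, edgeR adjusted p = 0.0069), place 28 (-0.53 ± 0.12, adjusted p = 0.0086), place 20 (-0.53 ± 0.12, adjusted p = 0.0097) and place 65 (-0.24 ± 0.06, adjusted p = 0.018). The count was 0 without the 6-day sets, 2 without the 5-day sets, 7 without the 4-day sets and 8 without the poorly correlated libraries at 6 h and 24 h. Shares of all transcripts in these alternatives are not given, so the counts are not read as a change particular to the 100.

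Against the controls none of these 4 passed at the high dose at 24 h, with adjusted p from 0.20 (place 20) to 1.00 (place 65). Place 4 had medians of 8.34 CPM in controls, 10.9 at the low dose and 6.13 at the high dose in the 4-day set, and of 2.75, 4.55 and 2.22 CPM in the 6-day set. In the 5-day set its medians were 6.40, 6.13 and 5.14 CPM. Place 28 had 34.4, 32.7 and 28.5 CPM in the 4-day set, 28.0, 43.7 and 31.9 CPM in the 5-day set and 16.0, 23.5 and 10.4 CPM in the 6-day set. The low-dose median was the highest of the 3 in all but 1 set for each, the 5-day set for place 4 and the 4-day set for place 28, where the control median was highest. The libraries of the 3 doses overlapped.

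In unexposed larvae the 100 did not share 1 course with age. In the controls at 6 h and 24 h, fitted alone, 38 of the 100 were lower in the 6-day sets than in the 4-day sets, 20 were higher and 42 did not pass the test (edgeR, false discovery rate 0.05). Over all 31468 transcripts tested, 23.5% were lower and 24.1% higher. The 38 had a median log2 fold change of -0.72 and the 20 a median of 1.02, and 11 and 10 of them exceeded 2-fold. The median of the 100 was -0.23 and that of all transcripts -0.01. Each set carries a library code of its own, so another difference between sets cannot be told apart from age.

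The largest fall with age was that of place 60. Its controls had 15.7, 271 and 390 CPM (lowest, median, highest) in the 4-day, 6 h set, 0.884, 24.4 and 62.2 CPM in the 5-day, 6 h set and between 0.465 and 23.2 CPM, with a mean of 5.39, in the 6-day, 6 h set. Within the 4-day sets the control median was 13.8 CPM at 24 h and 8.30 CPM at 48 h. The level thus lay lower with each later age and each later time at 4 days, with wide ranges in every group. The log2 fold change from 4 to 6 days was -3.91 ± 0.59 (SE, edgeR adjusted p = 1.8e-07). Next were place 5 (-3.16 ± 0.25), place 98 (-2.06 ± 0.09) and place 20 (-1.98 ± 0.15).

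FMt000461 was lower in unexposed larvae at 6 than at 4 days, and lower at 24 h than at 6 h as a mean of the 3 ages. Its control medians at 6 h were 36.8, 44.6 and 34.5 CPM at 4, 5 and 6 days, and those at 24 h were 50.7, 23.1 and 15.4 CPM. The ages were close at 6 h, with the highest median at 5 days, and apart at 24 h. With time the median was higher at 24 h in the 4-day set and lower in the 5-day and 6-day sets. The log2 fold change from 4 to 6 days was -0.81 ± 0.10 (SE, edgeR adjusted p = 2.0e-10), and that from 6 h to 24 h was -0.53 ± 0.08 (adjusted p = 2.8e-07). FMt046875 did not pass either test, at 0.27 ± 0.41 with age (adjusted p = 0.61) and -0.73 ± 0.33 with time (adjusted p = 0.11).

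**Figure D4:**
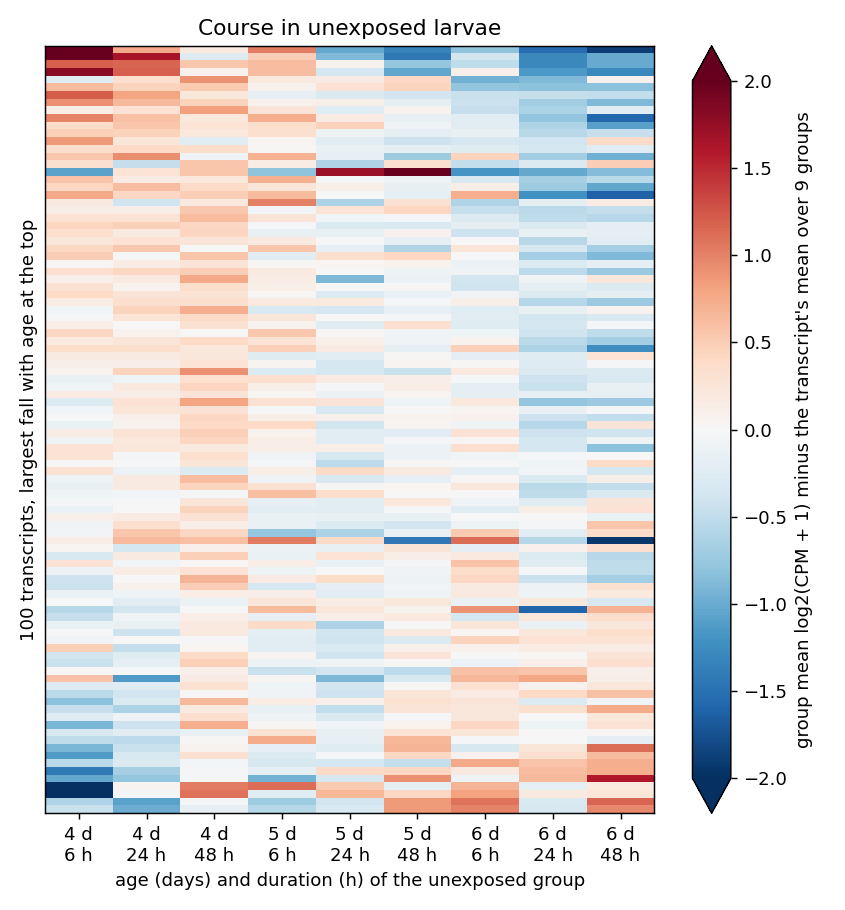
Levels of the 100 transcripts (rows) in the 9 control groups (columns, age and duration), as group mean log2(CPM + 1) minus the transcript's mean over the 9 groups; red is above and blue below that mean, with colours capped at 2 and -2. Rows run from the largest fall with age (top) to the largest rise (bottom), with the course of place 60 in the first row.

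The largest rises with age were those of FMt044223, by 3.34 ± 1.02 (SE, edgeR adjusted p = 0.0053), and FMt044216, by 3.28 ± 0.99 (adjusted p = 0.0048). With limma-voom neither passed, the first at 1.87 (adjusted p = 0.16) and the second at 2.66 (adjusted p = 0.067). Levels of both were near 0 in most libraries. Above 1 CPM were 23.7% of the 266 libraries for FMt044223 and 24.1% for FMt044216. FMt044216 had control values of 0, 0.110 and 29.2 CPM (lowest, median, highest) in the 4-day, 6 h set and 0.122, 4.51 and 44.8 CPM in the 6-day, 6 h set. At 24 h the control medians were 0.138 and 0.153 CPM at 4 and 6 days, and the highest libraries 0.621 and 22.0 CPM. At 24 h only the upper libraries were apart between these ages. The next rises were 2.60 ± 0.22 for place 49 and 2.17 ± 0.22 for place 10. Mean log2(CPM + 1) of place 49 in controls was 0.90 at 4 days and 4.83 at 6 days after 6 h, 3.99 and 4.20 after 24 h, and 5.11 and 4.27 after 48 h. For place 10 the same means were 1.39 and 5.30 after 6 h, 4.67 and 4.43 after 24 h, and 5.64 and 4.81 after 48 h. Both were thus low in the 4-day, 6 h set, and the 6-day mean was not above the 4-day mean at 48 h for either, nor at 24 h for place 10.

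**Figure D5:**
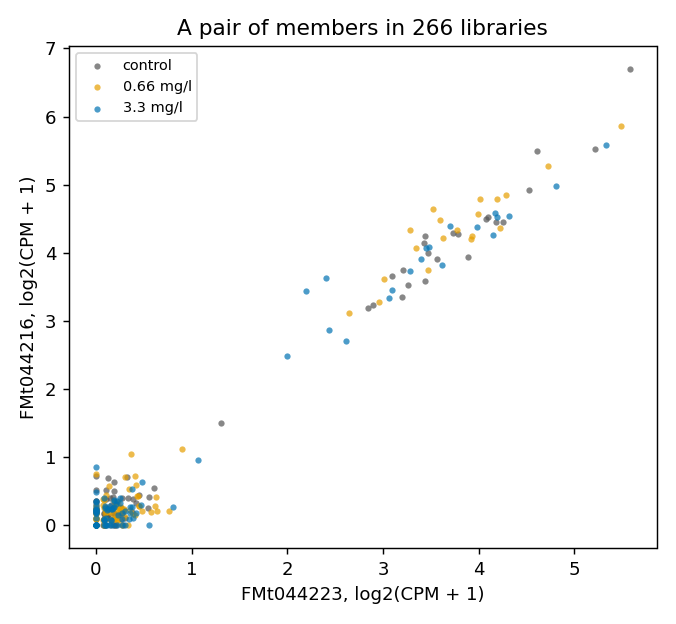
FMt044216 (y) against FMt044223 (x), log2(CPM + 1), in 266 libraries coloured by dose. Most libraries lie near 0 for both transcripts, and 37 libraries exceed 10 CPM for both.

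FMt044223 and FMt044216 have numbers 7 apart and were high in the same libraries. FMt044223 exceeded 10 CPM in 37 libraries, and in all 37 FMt044216 did too. The correlation of log2(CPM + 1) over 266 libraries, which include all groups, was 0.99. How reads shared between similar transcripts were counted is not given in the sources used here, so the 2 values may not be separate measurements. Of the 88 control libraries, 13 exceeded 10 CPM for FMt044223. The most alike of the other members, by r of log2(CPM + 1) over the 6 h and 24 h controls with group means removed, was place 6 for both (0.52 and 0.53). For FMt000461 it was place 98 (0.52), and for FMt046875 place 96 (0.41). Against control at 24 h, FMt044216 had log2 fold changes of 1.41 ± 0.81 at the high dose (SE, edgeR adjusted p = 0.59) and 2.27 ± 0.78 at the low dose (adjusted p = 0.17). At 6 h these were -2.21 ± 0.82 (adjusted p = 0.48) and -0.30 ± 0.67. None of them passed the test, and those of FMt044223 are not given here.

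Over time in the experiment, 21 of the 100 were lower at 24 h than at 6 h in controls and 7 were higher, as a mean of the 3 ages, against 10.8% and 10.9% of all transcripts (edgeR). The median of the 100 was -0.17. As differences in mean log2(CPM + 1), however, the sets differed: 39 of the 100 lay lower at 24 h than at 6 h at 4 days, 73 at 5 days and 71 at 6 days, where 43.0%, 52.8% and 60.6% of all transcripts did. Between 6-day and 4-day controls, 52 lay lower at 6 h, 68 at 24 h and 76 at 48 h, against 51.5%, 60.4% and 58.7% of all transcripts. The highest control mean of the 9 sets was that of the 4-day, 48 h set for 37 of the 100 and for 14.1% of all transcripts. The controls at 48 h entered the rule, and a high control value there favours choice. Nothing is therefore read from the 37, or from the 76 that lay lower at 48 h.

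The 100 varied more between libraries than most transcripts. In the controls at 6 h and 24 h the median SD of log2(CPM + 1) around group means was 0.412 for the 100 and 0.271 for all transcripts, and 51 of the 100 were in the highest 10% of the table. The rule ranked mean differences without regard to spread, which favours the choice of variable transcripts. The median r between pairs of the 100 over the same libraries was 0.09, and it was 0.02 between pairs of all transcripts. These values are descriptions across transcripts that share libraries and depth. The share of pairs above a cut in r depended on the cut. It was 14.1% at 0.3, against 8.88% of all pairs, and 0.04% at 0.7 (2 pairs), against 0.12% of all pairs. At r of at least 0.5, 101 of 4950 pairs were linked (2.04%, against 1.54% of all pairs). These links joined 40 of the 100 into 1 group and left 49 unlinked. Such a group is a chain of links, so its members need not be linked to each other directly. The median r between pairs within the group of 40 was 0.29. Group sizes for other transcripts are not given here. FMt000461 and places 4, 20, 57 and 65 belong to that group of 40. Their group had median differences at the high dose of -0.30, -0.38 and -0.48 at 48 h and of -0.02, -0.13 and 0.00 at 24 h (4, 5 and 6 days). At the low dose the 24 h medians were -0.01, 0.02 and 0.26. 9 pairs of the 100, made of 15 transcripts, have identifiers within 10 numbers of each other. Their median r was 0.53, against 0.04 for all such pairs in the table. The pair of FMt044223 and FMt044216 (r = 0.99) is among them, and places 32, 33 and 84 pair with each other. The rule can favour the joint choice of neighbours that vary together, so nothing is read from that median.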

How the data were processed

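The authors deposited whole-number read counts per transcript, used here as deposited. Larvae were frozen and bead-lysed, per the labels' protocols, and SENSE mRNA-Seq V2 (Lexogen) libraries were prepared. Reads were mapped to known fathead minnow transcripts, per the series' design text, and the submitters' processing notes name bcl2fastq 2.19.1, limma 3.40.6 and edgeR 3.26.8. The sources used here give no aligner, counting rule or build. Transcripts of 1 gene can share reads, which makes single counts uncertain. 0 columns were left unmapped.

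The score used log2(CPM + 1), with CPM from column sums. Tests used edgeR 4.0.16 in R 4.3.3 (TMM, filterByExpr, robust quasi-likelihood, Benjamini-Hochberg over all transcripts tested, threshold 0.05). One fit took the 18 groups at 6 h and 24 h, another the 6 control groups, and others single exposure sets. The SE of a log2 fold change is its absolute value over the root of the F statistic. Alternatives were RLE size factors, no filter, limma-voom (limma 3.58.1), DESeq2 1.42.0, 27 groups, a replicate block, and leaving out ages or far libraries. Python 3.11.15, NumPy 2.4.6, pandas 2.3.3 and SciPy 1.17.1 made the other values. The fits were also tested on simulated data.

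The members, comparisons and lists were chosen with earlier results of these data known. Identifiers were printed for the 2 members with the lowest scores among those with at least 10 CPM in the 48 h controls, and the 2 with the largest rise with age among those called in controls.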

Additional observations from a re-analysis of the deposited data

Results flagged for a closer look

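In the 27 groups, 3 measures (the mean log2(CPM + 1) of the 100 transcripts, FMt000461 and FMt046875) were searched for a single library far from the rest of its group, by a test that flags about 1 in 20 groups by chance. Of 81 groups of values, 12 held such a library. In the high-dose group of the 6-day, 48 h set, library 37 had the highest mean of the 100, at 2.87, and the next was 2.56. This group fixed the choice of transcripts, and the rule without that library kept 86 of the 100. FMt000461 was lowest in library 23 of the low dose, 5-day, 6 h set, at 4.42.

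The other 10 concern FMt046875, on the log2(CPM + 1) scale. It was near 0 in 1 library while the rest of the group was not, at 0.34 (control library 5, 4-day, 24 h), 0.42 (control library 13, 4-day, 48 h), 0.74 (low-dose library 23, 4-day, 48 h), 0.32 (low-dose library 16, 4-day, 6 h), 0.33 (high-dose library 31, 5-day, 48 h), 0.61 (low-dose library 20, 5-day, 6 h), 0.15 (high-dose library 41, 6-day, 48 h), 0.78 (low-dose library 17, 6-day, 48 h) and 0.59 (low-dose library 26, 6-day, 6 h). It was highest, at 5.98, in high-dose library 40 of the 6-day, 6 h set. Such libraries occurred at all 3 doses.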

How the results depend on the processing

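Of the list of 100 the rule returned 98 with TMM-scaled libraries, 85 with a pseudocount of 0.5, 59 with a pseudocount of 5, 51 without the far libraries among those it uses, 43 with group medians and 82 to 97 without 1 library. Counts of calls at 24 h were small and moved with age sets and far libraries: calls lower at the high dose went from 1 to 3 (without far libraries) and 0 (without the 5-day or the 6-day sets), calls lower against the low dose from 4 to 8 (far libraries), 7, 2 and 0 (without the 4-day, 5-day and 6-day sets), and calls higher at the low dose from 1 to 0 with 27 groups, 6, 4 and 0 (without the 4-day, 5-day and 6-day sets). In single sets DESeq2 called 1 lower at the high dose in the 4-day, 6 h and the 6-day, 24 h sets, and 1 higher at the low dose in the 4-day, 24 h set, where edgeR called 0. Shares of all transcripts called under these alternatives are not given here. The counts therefore do not show if the 100 moved more than other transcripts. The causes were not tested.

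The control counts stayed within 1.5 times of 38 and 20 with age and of 21 and 7 with time under each alternative run. With the replicate block they were 38 and 20, and 23 and 7. Shares of all transcripts called under these alternatives are not given here. Single calls could still be lost, as those of FMt044223 and FMt044216 with age were under limma-voom. Same-numbered controls of different groups had a median r of 0.0036, and 27 of 150 such pairs were above 0.1. Controls with other numbers had a median r of -0.0011, and 214 of 1350 such pairs were above 0.1. Both medians were near 0, so no pairing of groups by replicate number was seen.

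The 18 values that changed sign had an adjusted p of 0.604 or above before and after. For FMt000461 these were the low dose at 6 h (-0.028 with limma-voom, -0.020 and -0.060 without the 4-day and 5-day sets), the low dose at 24 h (0.14 without the 4-day sets), the high dose at 6 h (0.010 without the 4-day sets), the difference of 24 h and 6 h (0.022 without the 5-day sets) and the low dose at 5 days and 24 h (-0.018 without far libraries). For FMt046875 they were age in controls (-0.16 with limma-voom), the high dose against the low dose (0.17 with limma-voom, 0.23 without the 5-day sets), the low dose at 24 h (0.093 without the 4-day sets), the difference of 24 h and 6 h (-0.18 without the 6-day sets) and the high dose at 5 days and 6 h (0.054 without far libraries). For FMt044223 and FMt044216 they were the high dose against the low dose (0.36 and 0.049 without the 4-day sets) and the low dose at 6 h (0.98 and 1.32 without far libraries), and for FMt044216 also 0.055 without the 6-day sets. Members below a few CPM rest on few counts, which limits single values.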
